A study of Saccharomyces cerevisiae with 6 samples.

Results

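Nuclear genes of the mitochondrial respiratory chain and ATP synthase were compared between yeast cells carrying the [ESI+] state and naive yeast cells. The genes were taken by systematic name from a list of 35 that covers complexes II, III and IV, cytochrome c, ATP synthase and the NADH dehydrogenases. Of these, 32 were listed among the 2850 genes of the deposited files and made up 820 of 17906 transcript isoforms. COR1, CYT1 and ATP2 were not analysed here. The 32 genes comprise 2 NADH dehydrogenases, 4 subunits of complex II, 7 of complex III, cytochrome c, 8 subunits of complex IV and 10 of ATP synthase. All 32 passed the filter on low counts, with 2844 genes tested in all. No member had a near-identical copy (95% identity over at least 50% of its coding span), and no coding span of a member overlapped another gene.

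The ESI+ group held 3 biological replicates labelled as [ESI+] diploids, and the naive group held 3 biological replicates. All 6 carried the strain label BY4743, a diploid of the yeast Saccharomyces cerevisiae used in the laboratory, and the cultures grew in YPD, a rich medium with glucose, until their optical density (OD600) reached about 0.5. [ESI+] is a heritable, protein-based state that is linked to Snt1, a member of the Set3 histone deacetylase complex. The origin of the ESI+ cells and the number of isolates are details not given in the sources used here. The measured RNA was total RNA enriched for polyadenylated transcripts, and the question addressed by the comparison is how transcript levels differ between the states.

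In the respiratory chain, electrons from NADH and succinate pass through ubiquinone to complex III, then through cytochrome c to complex IV, which reduces oxygen. Budding yeast has no proton-pumping complex I, and single-chain NADH dehydrogenases on either face of the inner membrane take its place. ATP synthase uses the proton gradient that complexes III and IV build. Yeast growing on glucose ferments, and many of these nuclear genes are held low by glucose repression. The Hap complex of HAP2, HAP3, HAP4 and HAP5 binds CCAAT sequences and activates many of them, and the heme-dependent factor HAP1 binds sites that run CGG, any 3 bases, TA, any 1 base and CGG.

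The promoters of 5 genes are shown, because they carry the largest rise in ESI+ (COX7), the next largest difference (ATP15), the largest difference in the other direction (ATP1), both searched motifs (QCR6) and no match at all (CYC1). Each sequence runs 5′ to 3′ on the gene's strand, from 300 to 101 bases before the start codon, and is taken from the R64 reference genome of RefSeq. Capitals mark CCAAT or its reverse complement ATTGG and, in QCR6 alone, matches to the HAP1 form (CGG, any 3 bases, TA, any 1 base, CGG) on either strand.
COX7 (chrXIII:779228-779427, minus strand): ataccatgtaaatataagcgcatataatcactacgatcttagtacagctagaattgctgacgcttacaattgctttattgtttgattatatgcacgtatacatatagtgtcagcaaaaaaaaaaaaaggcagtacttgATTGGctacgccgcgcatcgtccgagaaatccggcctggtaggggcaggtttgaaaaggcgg
ATP15 (chrXVI:29779-29978, plus strand): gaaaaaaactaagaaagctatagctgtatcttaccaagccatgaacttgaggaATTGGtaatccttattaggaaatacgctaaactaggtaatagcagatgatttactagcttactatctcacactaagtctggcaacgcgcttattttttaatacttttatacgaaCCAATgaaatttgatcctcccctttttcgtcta
ATP1 (chrII:36753-36952, plus strand): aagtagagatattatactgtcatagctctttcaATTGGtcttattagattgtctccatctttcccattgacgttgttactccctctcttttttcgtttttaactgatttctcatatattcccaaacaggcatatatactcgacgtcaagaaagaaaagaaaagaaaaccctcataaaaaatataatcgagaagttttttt
QCR6 (chrVI:224870-225069, minus strand): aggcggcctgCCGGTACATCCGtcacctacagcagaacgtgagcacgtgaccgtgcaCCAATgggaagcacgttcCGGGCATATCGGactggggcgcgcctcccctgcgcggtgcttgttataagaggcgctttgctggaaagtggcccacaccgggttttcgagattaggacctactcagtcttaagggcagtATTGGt
CYC1 (chrX:526035-526234, plus strand): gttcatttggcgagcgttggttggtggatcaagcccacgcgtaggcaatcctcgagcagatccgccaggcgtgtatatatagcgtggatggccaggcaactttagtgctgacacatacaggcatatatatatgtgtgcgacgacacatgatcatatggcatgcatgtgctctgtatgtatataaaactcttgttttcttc

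CCAAT occurred on either strand within 300 bases before the start codon of 30 of the 32 members (93.8%). The same window held it in 1188 of 2843 genes with a reference sequence (41.8%). The members without a match were CYC1 and COX4, which encode cytochrome c and a subunit of complex IV. With a window of 500 bases, the counts were again 30 of 32 members, against 62.9% of all genes. In the 300-base window, 16 members held 1 match, 13 held 2, and NDE1, the NADH dehydrogenase of the outer face, held 3. The matches of the members lay at a median of 197 bases before the start codon, against 161 bases for the matches of all genes. Only 4 of the 45 matches of the members (8.89%) lay within the last 100 bases, against 31.1% of the matches of all genes. The HAP1 form matched on either strand at 2 places before QCR6, an acidic small subunit of complex III, and before 4 of the 2843 genes (0.141%). These matches describe the letters of the windows and are not binding sites shown by the data.

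**Figure D1:**
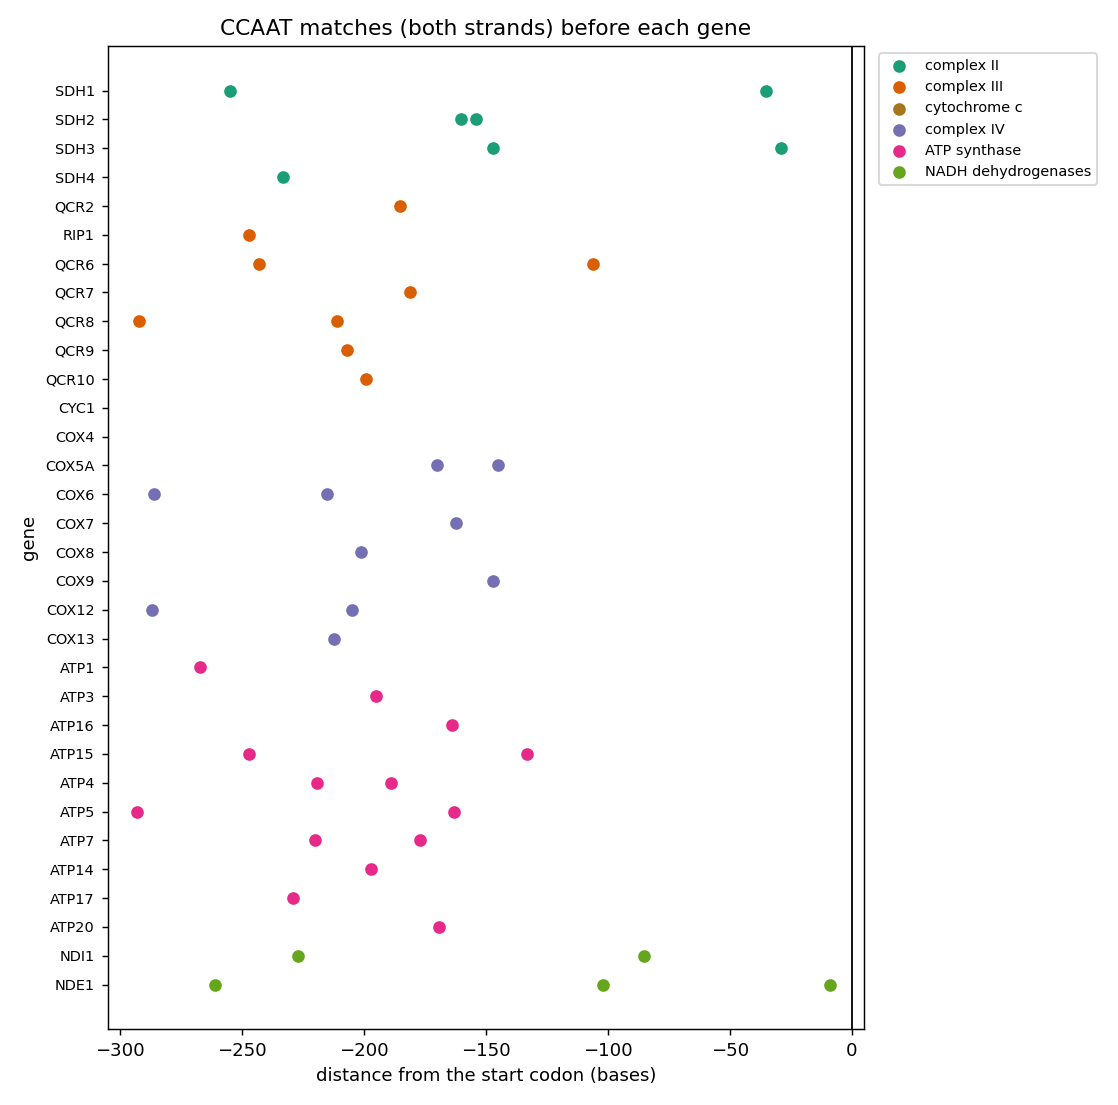
Position of each CCAAT match, on either strand, before the start codon of the 32 genes (x axis, distance in bases; y axis, genes coloured by complex). Of the 45 matches, 41 lie beyond 100 bases from the start codon, and CYC1 and COX4 have none.

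The 6 libraries differed in depth and in their profiles. Total estimated counts were 316485 to 3896490 in the ESI+ libraries and 1080941 to 5934050 in the naive libraries, and the members held 0.985% to 1.56% of the counts in ESI+ and 1.06% to 1.30% in naive. The lowest member count was 17 fragments, for SDH3 in ESI+ replicate 3, with a 95% Poisson interval of 9.90 to 27.2 that covers counting error only. In ESI+ replicate 2, a length-proportional background of 298.8 counts per kb would account for 22.7% of the members' counts, against 1.45% to 3.16% in the other 5 libraries. This background was set at the 5th percentile of counts per kb over all listed genes and was not measured. By gene, its share in ESI+ replicate 2 ran from 7.54% for CYC1 to 45.2% for ATP14. URA3, which BY4743 lacks, stood at 17.8, 26.3 and 333 CPM in ESI+ replicates 1, 2 and 3, against 32.3, 20.4 and 255 CPM in naive replicates 1, 2 and 3. ESI+ replicate 3 and naive replicate 3 therefore go against the strain label, and the counts of calls and COX7 are also given without both of them. The part of the background and of these libraries in the results was not tested beyond leaving libraries out and subtracting the background. CPM here are normalised to TMM-scaled library sizes, and fold changes are log2, ESI+ minus naive.

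COX7 was the only one of the 32 members that rose in ESI+ by edgeR's quasi-likelihood test, and none of the 32 fell. That is 1 of 32 members (3.13%), against 178 of 2844 genes in the whole table (6.26%), of which 150 were higher and 28 lower. At an unadjusted p under 0.05, edgeR gave COX7 and ATP15 as higher and no member as lower, against 722 of all tested genes (25.4%), 432 higher and 290 lower. DESeq2 called COX7 (adjusted p = 0.0251) and ATP15 (adjusted p = 0.0339) as higher, against a background of 386 of 2843 genes (13.6%), 241 higher and 145 lower. It gave no member as lower at its adjusted threshold. At an unadjusted p under 0.05, DESeq2 gave 2 members as higher and 2 as lower, against 801 of its 2843 genes in either direction. edgeR with robust shrinkage, added after the data were seen, also called both COX7 and ATP15, against a background of 7.91%. The share of members called in edgeR was below that of all genes.

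The median log2 fold change of the 32 members was -0.19, with 13 positive and 19 negative, against a median of 0.07 over all tested genes, of which 52.4% were positive. Compared in CPM, the ESI+ and naive values overlapped in 28 of the 32 members. All 3 ESI+ values lay above all 3 naive values for COX7 and ATP15 (6.25% of members, against 15.2% of all genes). All 3 lay below for COX13 and ATP1 in CPM, though not in TPM (6.25% of members in CPM, against 14.6% of all genes). Both shares were below those of the whole table.

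**Figure D2:**
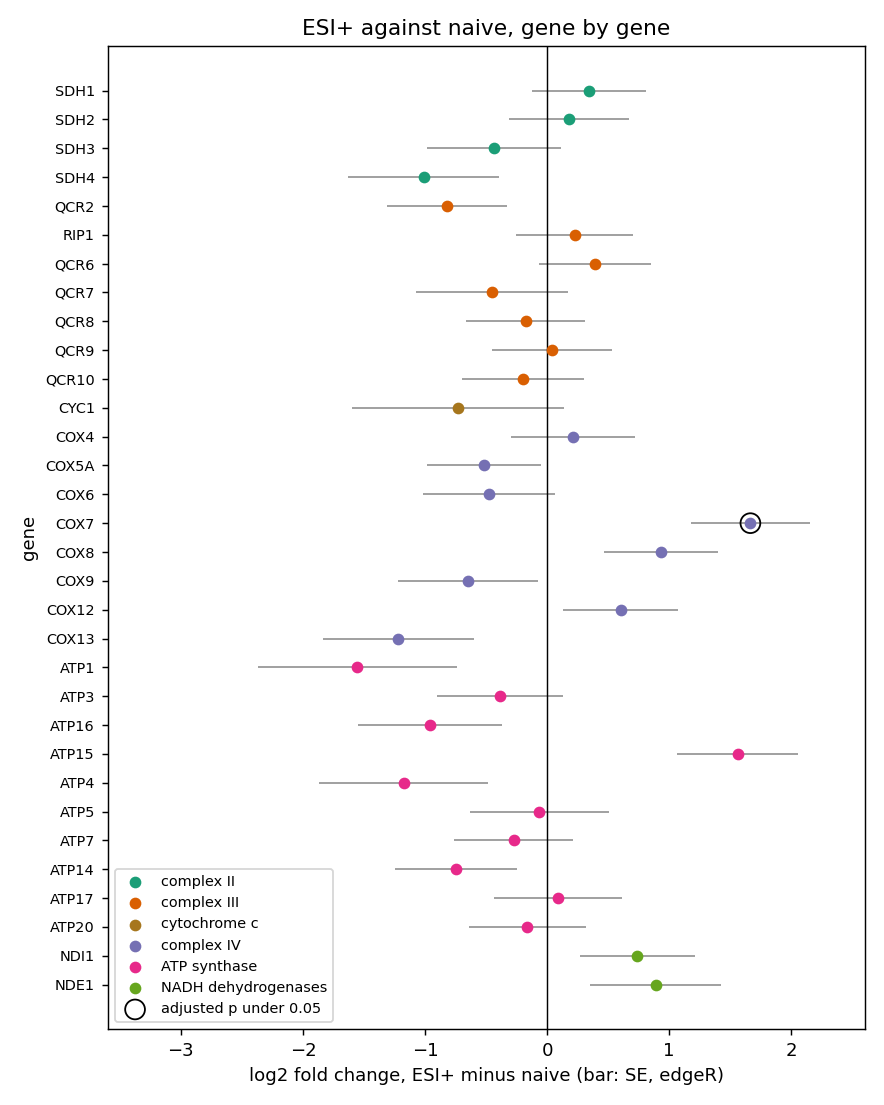
Log2 fold change of each gene (x axis, ESI+ minus naive, edgeR, 3 libraries per group) with its standard error as a bar; genes run down the y axis, coloured by complex. COX7 is the only gene circled for an adjusted p under 0.05, and ATP1 has the lowest fold change at -1.55.

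The ESI+ libraries departed from the naive mean in different directions across these genes. Relative to the mean of the naive libraries, the median member stood at 0.48, -0.99 and -0.22 on the log2 scale in ESI+ replicates 1, 2 and 3, while the median of all genes stood between -0.08 and 0.02 in the same libraries. Members above the naive mean numbered 25, 4 and 12 of 32 in ESI+ replicates 1, 2 and 3. ESI+ replicate 1 was the highest of the 6 libraries for 14 members (43.8%, against 6.36% of all genes), and ESI+ replicate 2 was the lowest for 19 members (59.4%, against 27.8% of all genes). In ESI+ replicate 2, 22 members lay below every naive library, against 40.4% of all genes. Summed over the members, the level was 16288, 5079 and 10211 CPM in ESI+ replicates 1, 2 and 3, against 13569, 19096 and 13699 CPM in naive replicates 1, 2 and 3. The summed ESI+ values thus lay on both sides of the lowest naive sum.

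**Figure D3:**
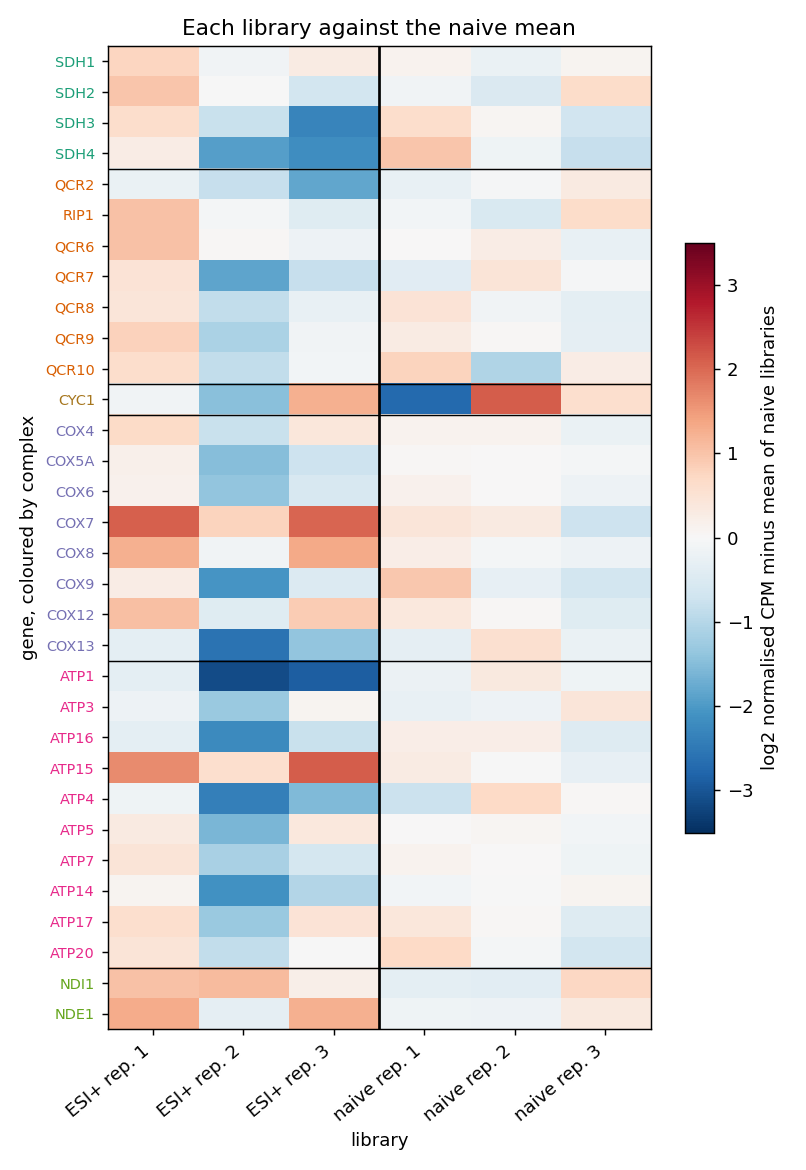
Log2 normalised CPM of each gene in each library minus the mean of the naive libraries (colour; red higher, blue lower), with ESI+ libraries left and naive libraries right, and genes grouped by complex down the page. Most rows are red in ESI+ replicate 1 and blue in ESI+ replicate 2. COX7, ATP15 and NDI1 lie above the naive mean in all 3 ESI+ columns, NDI1 by only 0.20 in ESI+ replicate 3. ATP1 reaches -3.14 in ESI+ replicate 2.

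The coefficient of variation among replicates had a median of 55.4% in ESI+ and 27.1% in naive over the members, and it was larger in ESI+ for 28 of them (87.5%). Over all tested genes the medians were 49.5% in ESI+ and 26.3% in naive, with 80.5% larger in ESI+. Without ESI+ replicate 2, the members' median fold change was 0.10 with 18 positive, and without ESI+ replicate 1 it was -0.52 with 7 positive. Without ESI+ replicate 3 and naive replicate 3 it was -0.30. edgeR then called no member, against 183 higher and 6 lower genes in the whole table. At an unadjusted p under 0.05 it gave 2 members, against 576 of 2848 tested genes. In RNA from whole cultures, fewer cells that express a gene and less RNA per cell cannot be told apart.

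**Figure D4:**
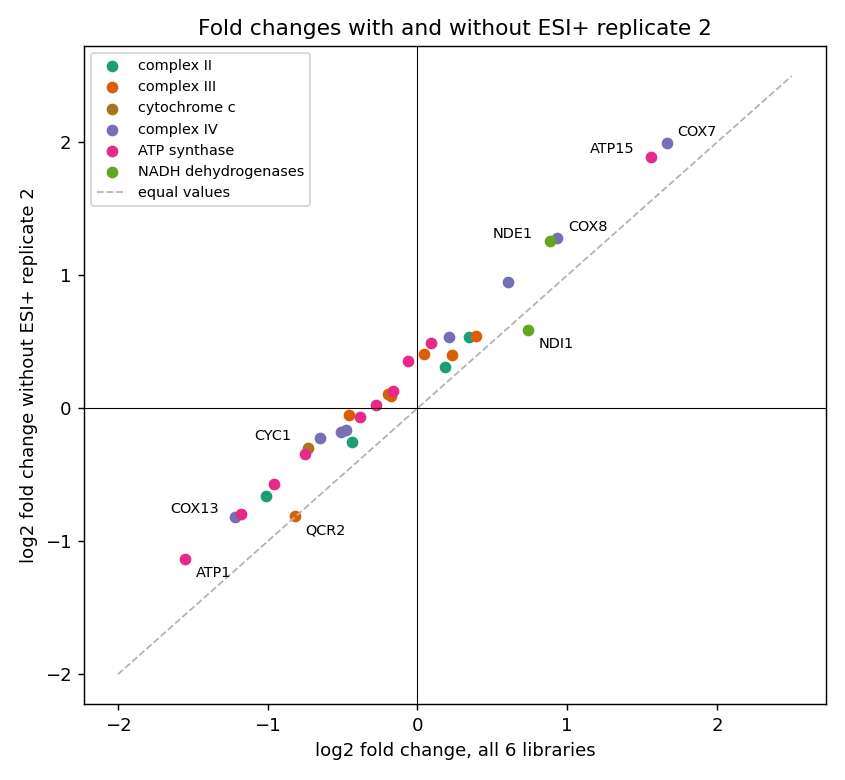
Log2 fold change of each gene from all 6 libraries (x axis) against that without ESI+ replicate 2 (y axis), coloured by complex; the dashed line marks equal values. Every gene but NDI1 lies on or above the line, and COX7 and ATP15 are at the top right on both axes while ATP1 stays lowest.

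The NADH dehydrogenases had positive fold changes that did not pass the test. NDI1 (YML120C, chrXIII:28266-29807), which oxidises matrix NADH, had 306, 318 and 170.3 CPM in ESI+ replicates 1, 2 and 3, against 117, 114 and 246 CPM in naive replicates 1, 2 and 3. Naive replicate 3 lay within the range of the ESI+ values and above ESI+ replicate 3, so the groups overlapped. The log2 fold change was 0.74 ± 0.47 (SE, adjusted p = 0.324, edgeR), and NDI1 was the only member in which ESI+ replicate 2 was the highest library. NDE1 (YMR145C, chrXIII:554793-556475), which oxidises cytosolic NADH, had 641, 209.5 and 618 CPM in ESI+ replicates 1, 2 and 3, against 234, 229 and 328 CPM in naive replicates 1, 2 and 3. ESI+ replicates 1 and 3 were above every naive value and ESI+ replicate 2 was below all of them. Its log2 fold change was 0.89 ± 0.54 (SE, adjusted p = 0.302, edgeR).

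In complex II, succinate dehydrogenase, no subunit passed the test, and the median fold change of the 4 genes was -0.13. The catalytic flavoprotein SDH1 had a log2 fold change of 0.34 ± 0.47 and the iron-sulfur subunit SDH2 one of 0.18 ± 0.49 (SE, adjusted p = 0.672 and 0.840, edgeR). The membrane anchor SDH4 (YDR178W, chrIV:817950-818495) had 482, 106 and 87.6 CPM in ESI+ replicates 1, 2 and 3, against 782, 358 and 230.1 CPM in naive replicates 1, 2 and 3. ESI+ replicates 2 and 3 lay below every naive library and ESI+ replicate 1 lay between the naive values. SDH4 had a log2 fold change of -1.01 ± 0.62 (SE, adjusted p = 0.306, edgeR). It was -2.18 without ESI+ replicate 1 and -0.32 without naive replicate 1 (adjusted p = 0.0517 and 0.824, edgeR). The other anchor, SDH3 (YKL141W, chrXI:179667-180263), had 329, 126 and 42.6 CPM in ESI+ replicates 1, 2 and 3, against 327, 223 and 135 CPM in naive replicates 1, 2 and 3, with a log2 fold change of -0.44 ± 0.55 (SE, adjusted p = 0.643, edgeR). Its lowest value was that of ESI+ replicate 3, the shallowest library.

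In complex III, the cytochrome bc1 complex, none of the 7 genes passed the test and their fold changes lay between -0.82 and 0.39, with a median of -0.18. The core subunit QCR2 (YPR191W, chrXVI:919381-920487) had 297, 199 and 97.7 CPM in ESI+ replicates 1, 2 and 3, against 288, 335 and 432 CPM in naive replicates 1, 2 and 3. ESI+ replicate 1 lay just inside the naive range and the other two ESI+ libraries below it. The log2 fold change of QCR2 was -0.82 ± 0.49 (SE, adjusted p = 0.299, edgeR). QCR6 (YFR033C, chrVI:224326-224769), whose promoter held both motifs, had 366, 187 and 160.3 CPM in ESI+ replicates 1, 2 and 3, against 182, 215 and 151 CPM in naive replicates 1, 2 and 3. ESI+ replicate 1 was above all naive values and the others lay within their range. RIP1, the Rieske iron-sulfur protein, had a log2 fold change of 0.23 (adjusted p = 0.790, edgeR). The small subunits QCR7, QCR8, QCR9 and QCR10 lay between -0.46 and 0.04.

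CYC1 (YJR048W, chrX:526335-526664), the main aerobic form of cytochrome c, was the most variable member among the naive libraries. It had 768, 302 and 1953 CPM in ESI+ replicates 1, 2 and 3, against 127, 3645 and 1238 CPM in naive replicates 1, 2 and 3. The highest value exceeded the lowest by 6.46-fold in ESI+ and by 28.8-fold in naive, and the naive libraries supplied both the highest and the lowest of the 6 values. The log2 fold change was -0.73 ± 0.87 (SE, adjusted p = 0.624, edgeR). It was 0.61 without naive replicate 2 and -1.64 without ESI+ replicate 3, neither past the threshold. The fold change was positive in 5 of 21 settings, among them limma on log2(TPM + 1) with all 6 libraries at 0.59, so its sign depended on the setting.

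In complex IV, cytochrome c oxidase, 1 of the 8 members rose and none fell, and the median fold change was -0.13. COX7 (YMR256C, chrXIII:778945-779127), a small subunit, had 333, 133 and 321 CPM in ESI+ replicates 1, 2 and 3, against 105, 96.4 and 46.4 CPM in naive replicates 1, 2 and 3. All ESI+ values were above all naive values, with ESI+ replicate 2 closest to them. COX7 averaged 262 ± 112 CPM in ESI+ and 82.6 ± 31.6 CPM in naive (SD, n = 3 each), a log2 fold change of 1.67 ± 0.49 (SE, adjusted p = 0.0441, edgeR). The fold change was positive in all 21 settings, between 1.20 and 2.01. The call was lost without ESI+ replicate 1 (adjusted p = 0.0898), ESI+ replicate 2 (0.0665), naive replicate 1 (0.0650), naive replicate 2 (0.0960) and naive replicate 3 (0.181), and it held without ESI+ replicate 3. It was also lost with effective-length offsets (adjusted p = 0.0752), after background subtraction (0.119) and in limma on log2(TPM + 1) (0.182). Using the replicate number as a block ended the call as well (adjusted p = 0.0557, edgeR). Without ESI+ replicate 3 and naive replicate 3 the log2 fold change was 1.20 (adjusted p = 0.228, edgeR).

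COX8 (YLR395C, chrXII:909729-909965), another small subunit, had 237, 91.6 and 250.4 CPM in ESI+ replicates 1, 2 and 3, against 117, 95.04 and 88.5 CPM in naive replicates 1, 2 and 3. ESI+ replicates 1 and 3 were above the naive values and ESI+ replicate 2 was among them. The log2 fold change of COX8 was 0.93 ± 0.47 (SE, adjusted p = 0.209, edgeR). COX12, at 0.60 ± 0.47, also had ESI+ replicates 1 and 3 above every naive value and did not pass (adjusted p = 0.421, edgeR). COX13 (YGL191W, chrVII:144808-145197), a peripheral subunit, had 564, 118 and 270.4 CPM in ESI+ replicates 1, 2 and 3, against 569.8, 1049.5 and 599 CPM in naive replicates 1, 2 and 3. All ESI+ values were below all naive values, although ESI+ replicate 1 was within a few CPM of naive replicate 1. Its log2 fold change was -1.22 ± 0.62 (SE, adjusted p = 0.214, edgeR). The remaining subunits COX4, COX5A, COX6 and COX9 had fold changes between -0.65 and 0.21, none past the threshold. COX5A, the member that varied least among the naive libraries, had 243, 75.5 and 130.2 CPM in ESI+ replicates 1, 2 and 3, against 219, 217 and 205 CPM in naive replicates 1, 2 and 3.

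Among the 10 ATP synthase members, none passed edgeR's adjusted threshold, 8 fold changes were negative and the median was -0.33. Without ESI+ replicate 2, 5 of the 10 were positive and the median was -0.02. ATP1 (YBL099W, chrII:37053-38690), the alpha subunit of the catalytic head, had 2972, 429 and 511 CPM in ESI+ replicates 1, 2 and 3, against 3276, 4816 and 3400.5 CPM in naive replicates 1, 2 and 3. ESI+ replicate 1 lay just below the naive range and ESI+ replicates 2 and 3 far below it. ATP1 averaged 1304 ± 1445 CPM in ESI+ and 3831 ± 855 CPM in naive (SD, n = 3 each), a log2 fold change of -1.55 ± 0.82 (SE, adjusted p = 0.232, edgeR). Without ESI+ replicate 1 it was -2.98 and passed (adjusted p = 0.0304, edgeR), in a fit that called 85 genes lower, against 28 with all libraries. With library quality weights in limma it was -2.35 and passed (adjusted p = 0.00625), with 127 genes lower. It also passed in limma-trend on log2(TPM + 1), added later (adjusted p = 0.0352). ATP1 did not pass in the other settings, among them DESeq2 (adjusted p = 0.0892) and background subtraction (0.350, edgeR). Without ESI+ replicate 2 it was -1.13 (adjusted p = 0.381, edgeR).

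The epsilon subunit ATP15 (YPL271W, chrXVI:30079-30267), part of the central stalk, had 160.4, 76.6 and 223 CPM in ESI+ replicates 1, 2 and 3, against 62.4, 50.2 and 41.2 CPM in naive replicates 1, 2 and 3. All ESI+ values were above all naive values, with ESI+ replicate 2 again the closest. ATP15 averaged 153 ± 73.4 CPM in ESI+ and 51.3 ± 10.6 CPM in naive (SD, n = 3 each), and its log2 fold change of 1.56 ± 0.50 missed the threshold (SE, adjusted p = 0.0552, edgeR). The other central stalk subunits were ATP3, the gamma subunit, at -0.39 ± 0.52, and ATP16, the delta subunit, at -0.96 ± 0.59 (SE, adjusted p = 0.667 and 0.310, edgeR). The stalk subunits thus differed in the sign of their fold changes, a difference that was not tested.

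In the peripheral stalk of ATP synthase, ATP4 (YPL078C, chrXVI:408010-408744) had 1082, 228 and 406 CPM in ESI+ replicates 1, 2 and 3, against 715, 1935 and 1230.2 CPM in naive replicates 1, 2 and 3. ESI+ replicates 2 and 3 lay below every naive value and ESI+ replicate 1 among them. The log2 fold change of ATP4 was -1.18 ± 0.69 (SE, adjusted p = 0.287, edgeR). The stalk subunits ATP5, ATP7 and ATP14 lay at -0.06, -0.27 and -0.75, with naive values that spanned less than 1.20-fold and ESI+ values that spanned 3.01-fold to 4.73-fold. The membrane-sector subunits ATP17 and ATP20 lay at 0.09 and -0.16. None of these 5 passed the threshold.

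**Figure D5:**
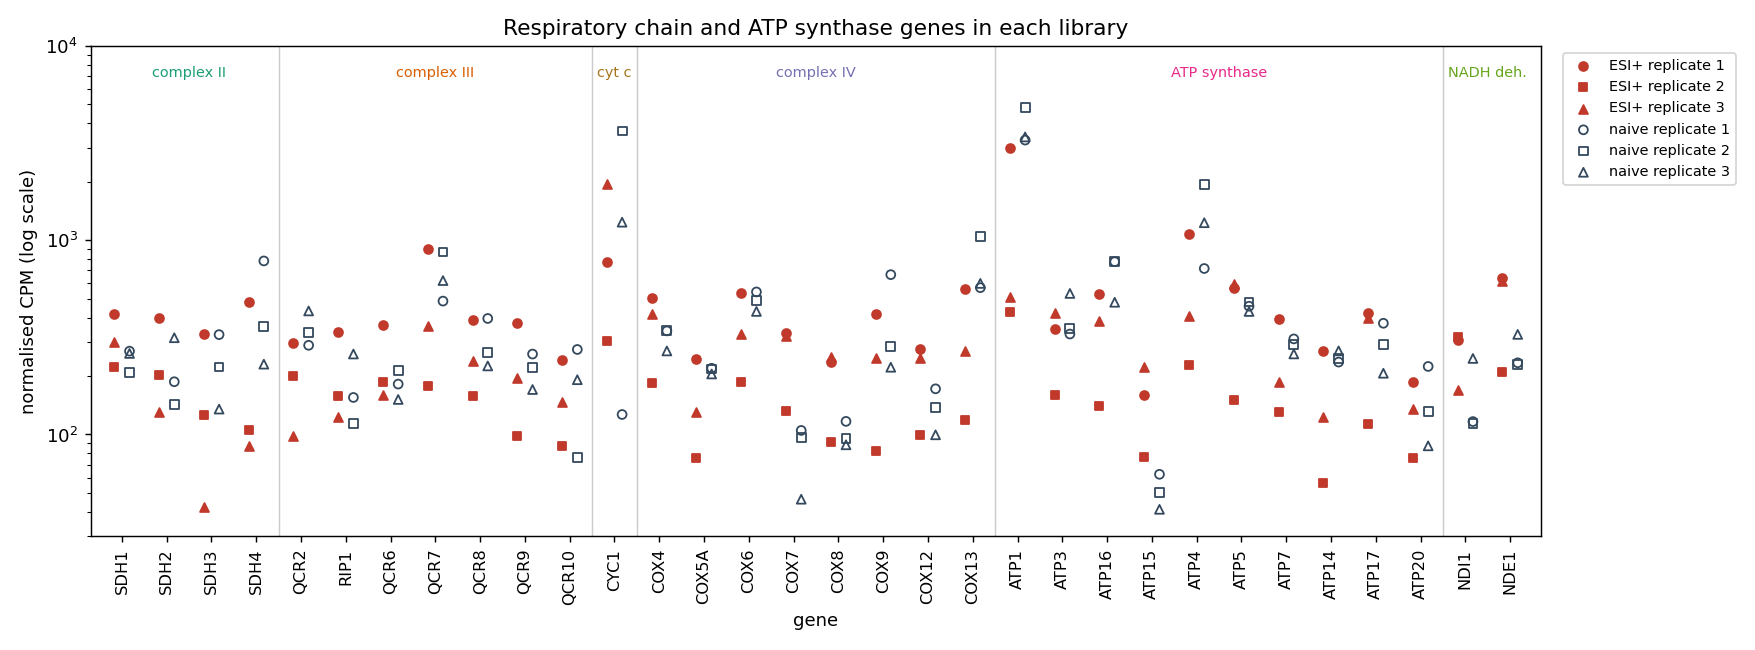
Normalised CPM (y axis, log scale) of the 32 genes (x axis, grouped by complex) in each library, with ESI+ libraries as filled symbols left of the open naive symbols. The filled symbols of COX7 and ATP15 all lie above the open ones, those of ATP1 and COX13 all lie below, and CYC1 has the widest naive spread.

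Ratios of counts within a library do not depend on library scaling, and they were formed for the pair at the extremes of ATP synthase and the pair at the extremes of complex IV, chosen after their values were seen and not tested. The ratio of ATP15 to ATP1 counts was 0.0540, 0.179 and 0.436 in ESI+ replicates 1, 2 and 3, against 0.0190, 0.0104 and 0.0121 in naive replicates 1, 2 and 3. The ratio of COX7 to COX13 counts was 0.590, 1.12 and 1.19 in ESI+ replicates 1, 2 and 3, against 0.184, 0.0918 and 0.0775 in naive replicates 1, 2 and 3. The genes of each pair were picked from those whose ESI+ values lay all above or all below the naive values, so that the choice of genes fixes the separation of the ratios.

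Levels of different genes were compared in TPM, which the authors' tool scales for length. In naive cells the highest mean TPM was that of CYC1 at 2960.3 ± 3005, followed by COX13 at 1323 ± 438, QCR7 at 1228 ± 334 and ATP1 at 1199.7 ± 140.0 (SD, n = 3). The last 3 of these differed from each other by less than their spread. In ESI+ cells the highest mean TPM were those of COX7 at 2896 ± 1677, CYC1 at 2717 ± 1994 and ATP15 at 1459 ± 686 (SD, n = 3). COX7 and CYC1 differed by less than their spread, and ATP15 lay below both by more than its own SD but less than theirs. The lowest means in both groups were those of the long transcripts SDH1 and NDI1, at 159.8 ± 25.1 and 178 ± 111 TPM in ESI+ and 75.7 ± 18.02 and 57.4 ± 27.96 TPM in naive. COX7 had 1518, 4763 and 2407 TPM in ESI+ replicates 1, 2 and 3, against 407, 1915 and 471 TPM in naive replicates 1, 2 and 3, so that its groups overlapped in TPM although they did not in CPM. ATP1 and COX13 also overlapped in TPM. Their ESI+ replicate 1 values were 1176 and 1103 TPM, above the 1161 and 1031 TPM of naive replicate 1. SDH1, QCR6, COX4, COX8, COX12, NDI1 and NDE1, which overlapped in CPM, had all ESI+ values above all naive values in TPM, as ATP15 had on both scales. On the log2(TPM + 1) scale the median fold change of all genes was 0.64, and that of the members was 0.50, with 22 of 32 positive.

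Across the 32 members, the fold change ran against the mean naive level in CPM, with Spearman's rho of -0.79, as it did across all 2844 genes at -0.72. The naive values enter both quantities, genes share the same libraries, and the correlation is given as a description. With mean isoform length the rho was -0.14 over the members and 0.10 over all genes.

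Other genes of the pathway were taken from 9 lists, of which 68 genes were tested. Of these, 4 rose in edgeR and none fell (5.88%, near the 6.26% of all tested genes), and the median fold change of the 68 was 0.13. At an unadjusted p under 0.05, which 25.4% of all tested genes passed, edgeR gave 6 assembly factors as higher and 1 as lower. Of the carriers, 1 was higher and 2 were lower. Higher values also came from 3 activators and RNA factors, 1 ATP synthase gene and 1 paralogue or extra subunit, with none lower there. COX26 (YDR119W-A), a further subunit of complex IV, had 263, 72.1 and 213 CPM in ESI+ replicates 1, 2 and 3, against 69.7, 58.4 and 42.7 CPM in naive replicates 1, 2 and 3. All of its ESI+ values were above all naive values, with a log2 fold change of 1.67 ± 0.51 (SE, adjusted p = 0.0495, edgeR). ATP18 (YML081C-A), a small ATP synthase subunit, had 251, 75.7 and 160.3 CPM in ESI+ replicates 1, 2 and 3, against 62.7, 47.5 and 40.5 CPM in naive replicates 1, 2 and 3, again with no overlap. Its log2 fold change was 1.69 ± 0.50 (SE, adjusted p = 0.0472, edgeR). As in COX7 and ATP15, ESI+ replicate 2 was the lowest ESI+ value of both genes. Without that library the log2 fold changes were 2.07 and 2.04, and neither passed (adjusted p = 0.0665 and 0.0665, edgeR).

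The further subunits and inhibitors of ATP synthase had a median fold change of 0.72 over 6 genes, 5 of them positive, with ATP18 the only one past the threshold. ATP19, another small subunit, lay at 1.14, and INH1, the inhibitor of its ATPase activity, at 0.87 (adjusted p = 0.223 and 0.299, edgeR). The 4 paralogues and extra subunits of the chain had a median of 0.26, and among them CYC7, the hypoxic form of cytochrome c, lay at -0.18 (adjusted p = 0.846, edgeR). Among 30 assembly factors and heme lyases, none was called by edgeR, with 6 higher and 1 lower at an unadjusted p under 0.05, a share near the 25.4% of all tested genes. The factor with the smallest p was COX14, which acts in the assembly of complex IV, at 1.62 ± 0.50 (SE, adjusted p = 0.0510, edgeR). DESeq2 gave COX14 an adjusted p of 0.0309.

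Among 7 activators and RNA factors of mitochondrially encoded subunits, 2 rose in edgeR, against 150 higher of all 2844 genes, and the median of the 7 was 0.70. CBP1 (YJL209W), which stabilises the cytochrome b message, had 51.7, 310.1 and 165 CPM in ESI+ replicates 1, 2 and 3, against 39.4, 46.2 and 42.5 CPM in naive replicates 1, 2 and 3. PET494 (YNR045W), a translational activator of the COX3 message, had 80.8, 229.9 and 92.6 CPM in ESI+ replicates 1, 2 and 3, against 31.5, 25.8 and 47.1 CPM in naive replicates 1, 2 and 3. Both were highest in ESI+ replicate 2, the library in which most members were lowest. The log2 fold changes were 2.05 ± 0.55 for CBP1 and 1.95 ± 0.53 for PET494 (SE, adjusted p = 0.0290 and 0.0329, edgeR). Without ESI+ replicate 2 they were 1.31 and 1.29 and did not pass (adjusted p = 0.204 and 0.160, edgeR).

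Of the 6 tested regulators, none was called in edgeR, with 0 at an unadjusted p under 0.05. HAP4, the activating subunit of the Hap complex, had 2339.7, 290.3 and 305 CPM in ESI+ replicates 1, 2 and 3, against 625, 1479.9 and 5093 CPM in naive replicates 1, 2 and 3. The groups overlapped and both spanned several-fold, with a log2 fold change of -1.29 ± 0.87 (SE, adjusted p = 0.353, edgeR). HAP3, a CCAAT-binding subunit, had 44, 446 and 0 estimated counts in ESI+ replicates 1, 2 and 3, so its level in ESI+ replicate 3 was not detectable at that depth. SNF1, the kinase that relieves glucose repression, lay at 0.75 (adjusted p = 0.338, edgeR). The median of the regulators was 0.50 with all libraries and -0.25 without ESI+ replicate 2.

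edgeR called no gene among the 5 ADP/ATP, phosphate and outer membrane carriers, with 1 higher and 2 lower at an unadjusted p under 0.05, which 25.4% of all tested genes passed. POR1, the outer membrane porin, had 1711, 612 and 123 CPM in ESI+ replicates 1, 2 and 3, against 5882, 4574 and 1538 CPM in naive replicates 1, 2 and 3, with ESI+ replicate 1 above naive replicate 3. Its log2 fold change was -2.29 ± 0.87 (SE, adjusted p = 0.101, edgeR), and DESeq2 gave an adjusted p of 0.0193. POR2, a paralogue of POR1, had 36.1, 97.6 and 170.3 CPM in ESI+ replicates 1, 2 and 3, against 47.6, 32.6 and 36.8 CPM in naive replicates 1, 2 and 3, with ESI+ replicate 1 among the naive values. Its log2 fold change was 1.34 ± 0.56 (SE, adjusted p = 0.132, edgeR), opposite in sign to that of POR1. PET9, the main ADP/ATP carrier, had 1522, 273 and 341 CPM in ESI+ replicates 1, 2 and 3, against 2200.4, 1993 and 2278 CPM in naive replicates 1, 2 and 3. All of its ESI+ values were below all naive values, with a log2 fold change of -1.60 ± 0.74 (SE, adjusted p = 0.178, edgeR). The 3 tested dehydrogenases that feed ubiquinone or cytochrome c had a median of -0.10 and the 7 coenzyme Q synthesis genes a median of 0.01, with none called and none at an unadjusted p under 0.05 in edgeR. None of the 7 mitochondrially encoded subunit genes was analysed here.

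The genes outside the set whose levels followed the members' mean most closely over the 6 libraries were TIM11, GLC3, RGI1, RDL2 and MRP8, with Pearson's r of log2 CPM between 0.96 and 0.97. TIM11, itself a subunit of ATP synthase, had 227, 48.3 and 143 CPM in ESI+ replicates 1, 2 and 3, against 166, 168 and 124 CPM in naive replicates 1, 2 and 3. Like the members' mean, it was highest in ESI+ replicate 1 and lowest in ESI+ replicate 2. GLC3, the glycogen branching enzyme, had 2131, 448 and 1157 CPM in ESI+ replicates 1, 2 and 3, against 1201, 1571 and 1440.0 CPM in naive replicates 1, 2 and 3, with the same extremes. Of 2812 genes outside the set, 19 had an r over 0.9 with the members' mean. Of the members, 6 had an r over 0.9 and only NDI1 had a negative one. Each member is part of the mean it was compared with, which raises its r, while the outside genes are not. All of these values share the same libraries and their scaling, and they are descriptions without a test.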

How the data were processed

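Polyadenylated RNA of 3 ESI+ and 3 naive cultures was sequenced in paired ends, per the labels' protocols. Per the submitters' processing notes, the authors used kallisto 0.43.1 and the genome build R64. Its options, the strandedness and where the isoform set came from are details not given in the sources used here. The deposited tables hold estimated counts and TPM per isoform, together with isoform lengths, per the file headers. TPM were scaled for length and depth by the authors' tool.

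Isoform counts were added up per gene and rounded to whole numbers. Genes were filtered with filterByExpr (minimum count 10) and libraries scaled by TMM. ESI+ was compared with naive by edgeR 4.0.16 (quasi-likelihood, R 4.3.3) over all 2844 genes, with Benjamini-Hochberg adjustment and a threshold of 0.05. SE were derived from the fold change and F statistic. P-values set the difference between the groups against the spread between these libraries, which was estimated with information from all tested genes. DESeq2 1.42.0, limma 3.58.1, other filters, scalings and left-out libraries were alternatives. Copies were searched with blastn 2.17.0. The test was checked on simulated counts that gave both groups the same dispersion, so the check does not cover the larger spread of the ESI+ libraries. Systematic names matched the R64 annotation for 2849 of 2850 genes, and coordinates are coding spans.

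The members and gene lists were chosen with earlier results of these data known. The text names every member, up to 3 genes of each list by p, and the 5 outside genes most correlated with the members' mean. CYC7 and URA3 were named in addition.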

Additional observations from a re-analysis of the deposited data

How the results depend on the processing

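Of the 32 fold changes, 16 kept their sign under all 20 alternatives and 16 changed sign under at least 1. The counts of genes called moved more. Against 150 higher and 28 lower genes in the whole table, with 1 member higher and 0 lower, DESeq2 called 241 higher and 145 lower with 2 members higher. limma on log2 TPM called 0 and 0 with 0 members at either pseudocount, with 655 genes and 7 members at an unadjusted p under 0.05 for the pseudocount of 1. limma-trend on the same values, added after seeing the data, called 138 genes higher and 32 lower in the whole table. Among the members it called 4 higher (COX7, COX8, COX12, ATP15) and 1 lower (ATP1). Subtracting a length-proportional background gave 0 and 0 with 0 members, with 533 genes at an unadjusted p under 0.05. Library quality weights gave 125 higher and 127 lower, with 2 members higher (COX7, ATP15) and 2 lower (ATP1, ATP4). Robust shrinkage, also added later, gave 178 higher and 47 lower with 2 members higher. Removing the 20 most abundant genes gave 187 higher and 41 lower genes, with 2 members higher. Effective-length offsets gave 175 higher and 27 lower genes, with 0 members higher. An adjusted p under 0.01 left 24 higher and 0 lower, with 0 members. Without ESI+ replicate 3 and naive replicate 3, 183 genes were higher and 6 lower, with 0 members higher. Leaving out each library gave 1 to 327 higher and 0 to 85 lower, with 0 to 1 members higher and 0 to 1 lower. The lowest counts, 1 and 0, came without ESI+ replicate 2. Where values differ between settings, the cause was not tested.

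The replicate block gave 68 higher and 20 lower genes with 0 members higher, and COX7 at 1.64 (adjusted p = 0.0557, edgeR). The deviations of same-numbered libraries from their group means correlated at -0.064, -0.209 and -0.041, and no library correlated best with its own number. Deviations from a group mean cancel within the group, so these values cannot decide whether the numbers pair the libraries.

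Depth limits the statements most in ESI+ replicate 3, with 17 counts for SDH3, and standard errors were widest for CYC1, ATP1 and ATP4, whose libraries are uneven within groups.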

Other observations

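The authors' quantification assigned the members' fragments to longer isoforms in ESI+ replicate 2. Of 28 members with several isoforms whose count-weighted mean length differed between libraries by over 1 base, 23 (82.1%) had their longest mean in ESI+ replicate 2, against 69.3% of 2033 genes of that kind. For 14 members (50%) the shortest mean was in ESI+ replicate 3, against 45.1% of those genes. ATP1 had a mean isoform length of 2192, 2223 and 2190.1 bases in ESI+ replicates 1, 2 and 3, against 2177, 2177 and 2184 bases in naive replicates 1, 2 and 3. COX7 was an exception, with 387, 349 and 350.1 bases in ESI+ replicates 1, 2 and 3, against 388, 337 and 368 bases in naive replicates 1, 2 and 3. Its isoforms run between 264 and 472 bases, and shorter ones raise its TPM relative to its CPM. With offsets for the effective isoform lengths, the log2 fold change was 1.37 for COX7, against 1.67 without them, and 1.19 for ATP15, against 1.56, and neither passed (adjusted p = 0.0752 and 0.137, edgeR).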
